A study of Mus musculus with 18 samples.

Results

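The members described here are genes of the NRF2 response, of glutathione metabolism and of the thioredoxin system. They were chosen by gene symbol, and each gene was given by the brightest of its probe sets that carry exactly 1 symbol. Of 44 genes listed, 42 were measured, out of 19938 genes in all, and Prdx6 and G6pdx had no such probe set. NRF2, encoded by Nfe2l2, is a transcription factor that KEAP1 binds in unstressed cells and passes on for ubiquitination and degradation. Electrophiles and oxidants modify KEAP1, NRF2 then accumulates, pairs with small MAF proteins and binds antioxidant response elements near genes for glutathione synthesis, thioredoxin reduction, NADPH supply and detoxification. In lung tissue this response is known for its part in handling inhaled oxidants.

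RNA of MLg 2908 cells, a fibroblast line from the lung of newborn wild-type ddY mice, was hybridised to Mouse Gene 1.0 ST arrays (Affymetrix). The cells were plated on a collagen matrix, and those inside it (invading fraction) were separated from those left on top (non-invading fraction) after 72 h, with 4 samples per fraction, or after 96 h, with 5 samples per fraction. The study describes each column of its array heat maps as an independent experiment, and all samples came from this 1 line. Since the fractions are separated from each other, an invading and a non-invading sample may share a culture. The study used paired t-tests for the receptor levels it took from these arrays. The labels give replicate numbers but do not say whether these pair the fractions, and the main fits here were unpaired. The treatment entry of all 18 samples names TGFB1 treatment with the assay, whereas the titles name no treatment and the study marks these cells as not treated, so the labels leave this open. The deposited values are RMA signals on a log2 scale. The fractions of a time were set against each other with limma and Benjamini-Hochberg adjustment over 35556 probe sets, and "higher", "lower" and "regulated" below stand for an adjusted p under 0.10. Sample medians ran from 6.462 to 6.647, and Pearson's r between replicates of a group over all probe sets ran from 0.991 to 0.996. Of 10 fibroblast markers all except Thy1 (mean log2 signal 6.07) had a mean of 11.83 or above. The means of 6 epithelial, 4 endothelial and 5 leukocyte and macrophage markers lay between 5.383 and 6.05 in every sample. Epcam, Sftpc, Pecam1, Ptprc and Adgre1 had means between 4.689 and 5.534, and Krt8 (7.566) and Cd68 (7.181) were the brightest of these 15. The smooth muscle marker Acta2, which activated fibroblasts also express, had a mean of 13.01. In bulk RNA, fewer cells that express a gene and less of its RNA per cell cannot be told apart.

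The core of the antioxidant response element, TGACNNNGC, was searched on both strands in the 250 bases before the start of each gene (RefSeq, GRCm38.p6). Such a window was given for 37 of the 42 measured members, and 10 of them (27%) held a match, as compared to 11.5% of all 27025 genes with a window. The 10 members were Nfe2l2, Gclm, Txnrd1, Prdx1, Gsta3, Gstm5, Mgst1, Sod1, Ugdh and Abcc4. Abcc1, Gclc, Gsr, Gsta4 and Hmox1 had no window. The windows of the 5 members that hold a match and were higher in the invading fraction at both times are shown because their RNA values are described below. They are written on the strand of the gene, with the matched letters in capitals.
Nfe2l2, chr2:75704664-75704913, minus strand: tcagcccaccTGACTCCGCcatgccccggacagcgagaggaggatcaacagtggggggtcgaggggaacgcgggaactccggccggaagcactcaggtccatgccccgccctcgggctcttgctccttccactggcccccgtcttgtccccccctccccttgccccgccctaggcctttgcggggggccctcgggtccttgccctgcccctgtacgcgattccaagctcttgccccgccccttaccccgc
Gclm, chr3:122245307-122245556, plus strand: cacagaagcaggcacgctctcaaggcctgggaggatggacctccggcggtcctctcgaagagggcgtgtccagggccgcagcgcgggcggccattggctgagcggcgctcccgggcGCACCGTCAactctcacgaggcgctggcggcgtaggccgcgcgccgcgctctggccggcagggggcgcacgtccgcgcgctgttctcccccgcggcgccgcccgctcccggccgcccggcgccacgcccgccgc
Txnrd1, chr10:82858956-82859205, plus strand: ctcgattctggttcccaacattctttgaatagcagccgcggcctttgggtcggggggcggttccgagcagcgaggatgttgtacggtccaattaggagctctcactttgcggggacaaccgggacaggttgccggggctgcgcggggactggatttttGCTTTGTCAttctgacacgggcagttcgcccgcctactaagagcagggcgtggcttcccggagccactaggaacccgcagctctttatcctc
Prdx1, chr4:116685349-116685598, plus strand: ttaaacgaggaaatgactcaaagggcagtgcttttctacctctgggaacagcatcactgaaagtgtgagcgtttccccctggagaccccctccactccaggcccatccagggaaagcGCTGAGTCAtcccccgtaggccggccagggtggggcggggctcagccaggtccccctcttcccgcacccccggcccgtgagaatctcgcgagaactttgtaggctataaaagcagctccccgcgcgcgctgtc
Gsta3, chr1:21240335-21240584, plus strand: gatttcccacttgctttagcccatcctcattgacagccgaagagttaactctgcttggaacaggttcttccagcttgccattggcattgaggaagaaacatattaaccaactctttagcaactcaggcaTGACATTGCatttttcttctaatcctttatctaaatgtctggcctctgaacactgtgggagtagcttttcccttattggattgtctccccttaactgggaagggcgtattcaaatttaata
The matched letters of Nfe2l2 lay farthest from the start, from base -240 to base -232, and those of Txnrd1 nearest, from base -92 to base -84. In Gclm, Txnrd1 and Prdx1 the match was on the strand opposite to the gene. The match of Prdx1 overlaps a match to TGANTCA, the letters bound by AP-1 factors, which 6 of the 37 members (16.2%) and 7.82% of all genes held. A match is a string of letters in the window and not a measured binding site. Gstm5, Mgst1, Sod1, Ugdh and Abcc4 held a match but were not higher at both times. Sqstm1, Gss, Srxn1, Taldo1, Gstm1, Gstp1, Gpx4, Sod2, Nqo1, Blvrb, Cbr3 and Osgin1 were higher at both times and had a window without a match. Whether a match goes with the fraction difference was not tested.

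Over the whole set, higher members outnumbered lower ones among invading cells at each time. At 72 h 23 of 42 members were higher and 2 were lower, as compared to 13% and 13.5% of all genes. At 96 h 26 were higher and 1 was lower, against 16.7% and 14.7% of all genes. The median log2 ratio of the members was 0.24 at 72 h and 0.26 at 96 h, against 0.04 and 0.02 over all genes. A positive log2 ratio was found for 37 and 38 of the 42 members, and for 58.7% and 56.7% of all genes. At 72 h 21 members had all invading samples above all non-invading samples (12.5% of all genes), and at 96 h 17 members did (9.35% of all genes). The calls at both times held 19 higher members, namely Nfe2l2, Sqstm1, Gclm, Gss, Txnrd1, Srxn1, Prdx1, Taldo1, Gsta3, Gsta4, Gstm1, Gstp1, Gpx4, Sod2, Nqo1, Hmox1, Blvrb, Cbr3 and Osgin1. Gpx8 was lower at both times, and no member changed from higher to lower or the reverse. Neither call was made for Keap1, Gclc, Pgd, Gstm5, Mgst2, Cat, Sod1, Ephx1, Ugdh and Abcc1. Most ratios were small: 4 members at 72 h and 2 at 96 h were higher with a ratio above 1.5, against 0.873% and 1.14% of all genes.

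The signals of the members were bright, with a median of 10.93 over members and 7.136 over genes, and 30 of the 42 lay at or above the 75th percentile of genes. Bright genes were called more often than genes in general in both directions. The members with a mean of at least 10 were therefore also read against the 2665 genes with such a mean, a limit chosen after the data were seen. At 72 h 13 of these 26 members (50%) were higher and 2 were lower, against 17.5% and 25.9% of the bright genes. At 96 h 17 (65.4%) were higher and 1 was lower, against 26.5% and 23.2%.

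**Figure D1:**
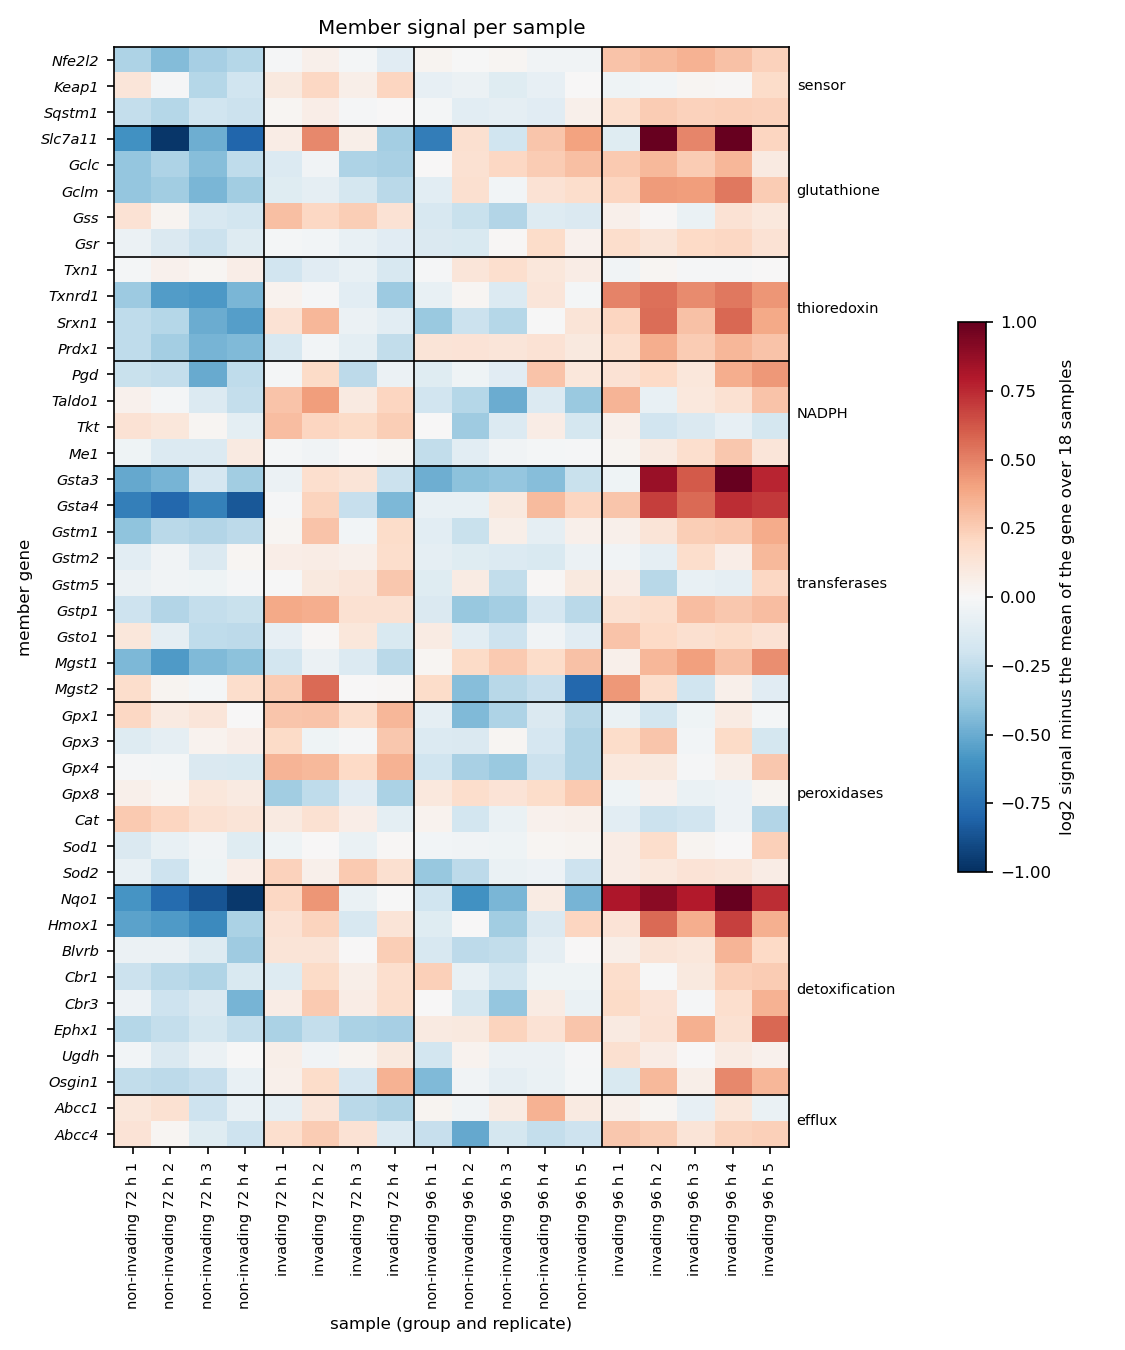
Log2 signal of each of the 42 members in each of the 18 samples, minus the mean of that gene over all samples, with genes in rows by role and samples in columns by group. Red is above and blue below the mean of the gene, and the colour scale ends at -1 and 1. The columns of the invading fraction at 96 h are mostly red and those of the non-invading fraction at 72 h mostly blue, and Nqo1, Gsta4, Gsta3 and Slc7a11 show the strongest colours.

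The transcription factor itself was higher among invading fibroblasts. For Nfe2l2 the invading samples at 72 h, from replicate 1 on, had log2 signals of 11.42, 11.48, 11.41 and 11.31, and the non-invading samples 11.12, 10.99, 11.10 and 11.14. At 96 h the invading samples had 11.71, 11.74, 11.77, 11.72 and 11.66, and the non-invading samples 11.46, 11.43, 11.45, 11.39 and 11.39. The fractions did not overlap at either time, and the difference was log2 ratio 0.32, SE 0.07, adjusted p = 0.01 at 72 h and log2 ratio 0.30, SE 0.04, adjusted p = 0.00064 at 96 h, which is 1.25-fold and 1.23-fold. Keap1, which encodes the adaptor that holds NRF2 in check, had signals of 9.09, 9.19, 9.04 and 9.20 in the invading and 9.11, 8.97, 8.70 and 8.79 in the non-invading fraction at 72 h. At 96 h they were 8.94, 8.96, 9.003, 8.995 and 9.17 and 8.90, 8.93, 8.86, 8.91 and 8.99. The fractions overlapped at both times and the test was not passed, with log2 ratio 0.24, SE 0.10, adjusted p = 0.12 at 72 h and log2 ratio 0.10, SE 0.05, adjusted p = 0.22 at 96 h. The 95% interval of the ratio at 96 h ran from 0.984 to 1.16. Sqstm1, the autophagy receptor that binds KEAP1, was higher at both times without overlap, by 0.26 and 0.28 on the log2 scale (adjusted p = 0.013 and 0.0018).

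Among genes of glutathione synthesis and reduction, 3 of 5 (60%) were higher at each time, though not the same ones. Of all genes 13% were higher at 72 h and 16.7% at 96 h. Slc7a11, the cystine carrier that supplies the cysteine of glutathione, had invading signals of 8.30, 8.70, 8.28 and 7.89 and non-invading signals of 7.62, 7.25, 7.74 and 7.43 at 72 h, without overlap. It was 1.72-fold higher (log2 ratio 0.78, SE 0.17, adjusted p = 0.012). At 96 h its samples spread far more, with 8.10, 9.27, 8.71, 9.24 and 8.44 in the invading and 7.53, 8.39, 8.03, 8.51 and 8.63 in the non-invading fraction. The fractions then overlapped and the difference did not pass the test (log2 ratio 0.54, SE 0.26, adjusted p = 0.15). Gclm, the modifier subunit of the enzyme that makes the first step to glutathione, was higher at both times (log2 ratio 0.22 and 0.30, adjusted p = 0.039 and 0.018). For Gclc, its catalytic subunit, the log2 ratios were 0.14 and 0.07, and neither passed (adjusted p = 0.27 and 0.52). Gss, which makes the second step, was higher at both times by 0.27 and 0.24. Gsr, which reduces oxidised glutathione, was higher at 96 h alone in the calls (log2 ratio 0.18, adjusted p = 0.064), with 0.08 at 72 h.

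Of 4 measured members of the thioredoxin system, Txnrd1, Srxn1 and Prdx1 were higher at both times and Txn1 at neither. Txnrd1, the reductase that keeps thioredoxin reduced, had invading signals of 10.47, 10.43, 10.33 and 10.07 and non-invading signals of 10.07, 9.88, 9.86 and 9.98 at 72 h. The lowest invading sample (10.068) lay just above the highest non-invading one (10.067), so the fractions did not overlap but were nearly in contact. At 96 h the signals were 10.93, 10.99, 10.91, 10.96 and 10.87 and 10.36, 10.45, 10.30, 10.56 and 10.41, and the fractions stood wide apart. The difference was log2 ratio 0.38, SE 0.10, adjusted p = 0.026 at 72 h and log2 ratio 0.52, SE 0.06, adjusted p = 0.00013 at 96 h. Srxn1, which repairs over-oxidised peroxiredoxins, was higher by 0.48 and 0.55 (adjusted p = 0.019 and 0.0029), without overlap. Prdx1, a peroxiredoxin that removes hydrogen peroxide, was higher by 0.24 and 0.15 (adjusted p = 0.052 and 0.038), and the call at 96 h ended when quantile normalization was applied again (adjusted p = 0.13). Its second probe set gave a similar difference at both times. Txn1, thioredoxin itself, was lower at 72 h (log2 ratio -0.16, SE 0.06, adjusted p = 0.083), a call that ended when arrays were centred on their medians (adjusted p = 0.38). At 96 h its log2 ratio was -0.10 (adjusted p = 0.16).

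In a list of 4 genes of the pentose phosphate pathway and NADPH supply, Taldo1, a transaldolase of that pathway, was higher at both times by 0.34 and 0.46 (adjusted p = 0.029 and 0.0036). Tkt, the transketolase of that pathway, was higher at 72 h (0.19, adjusted p = 0.089) and had a log2 ratio of 0.01 at 96 h. Its call at 72 h was lost in 10 of 17 alternative settings, 1 fit over all 18 samples among them. Me1, the cytosolic malic enzyme, showed the opposite order, with 0.05 at 72 h and a call at 96 h (0.22, adjusted p = 0.027). Its second probe set had a log2 ratio of -0.05 at 72 h and 0.23 at 96 h. Whether these differences changed between the times was tested over all members and is given below. Pgd, a dehydrogenase that forms NADPH, had log2 ratios of 0.27 and 0.23 and did not pass.

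The 9 glutathione transferases among the members all had a positive log2 ratio at both times, and 5 (55.6%) passed at 72 h and 6 (66.7%) at 96 h. Of 12 further transferases measured, 10 had a positive ratio at 72 h and 12 at 96 h. Of these 12, 4 (33.3%) and 3 (25%) were higher, and none was lower at either time. Of all genes 13% and 16.7% were higher, and 58.7% and 56.7% had a positive ratio. Related transferases of 1 class can share probe sequence, so the values of single transferase genes are uncertain to that degree. Gsta4, which conjugates products of lipid peroxidation, had invading signals of 12.02, 12.26, 11.80 and 11.59 and non-invading signals of 11.35, 11.25, 11.36 and 11.19 at 72 h, without overlap. At 96 h they were 12.31, 12.73, 12.60, 12.78 and 12.74 and 11.96, 11.96, 12.14, 12.35 and 12.25, and the lowest invading sample, replicate 1, lay below the highest non-invading one. Gsta4 was 1.55-fold higher at 72 h (log2 ratio 0.63, SE 0.13, adjusted p = 0.011) and 1.41-fold higher at 96 h (log2 ratio 0.50, SE 0.11, adjusted p = 0.005). Gsta3, another alpha class transferase, had far lower signals of its own, with 6.17, 6.40, 6.36 and 6.01 in the invading and 5.72, 5.76, 6.06 and 5.88 in the non-invading fraction at 72 h. At 96 h the non-invading samples stayed close together at 5.75, 5.82, 5.85, 5.80 and 6.01, while the invading samples spread over 6.18, 7.09, 6.84, 7.45 and 6.99. Every invading sample at 96 h was above every non-invading sample, and the ratio was 2.1 (log2 ratio 1.07, SE 0.19, adjusted p = 0.0016), as compared to 1.3 at 72 h (log2 ratio 0.38, SE 0.11, adjusted p = 0.037). In 1 fit over all 18 samples the call at 72 h was not made (adjusted p = 0.14). The non-invading signals of Gsta3 lie close to the sample means of the epithelial, endothelial and leukocyte markers given above, and whether they exceed background was not tested, so its ratios describe the measured signals alone. Gstp1, the pi class transferase, was higher by 0.50 and 0.50 on the log2 scale (adjusted p = 0.0026 and 0.00024) without overlap. Gstm1 was higher by 0.42 and 0.27 (adjusted p = 0.0084 and 0.021). Mgst1, a membrane-bound transferase and peroxidase, had invading signals of 11.61, 11.73, 11.66 and 11.52 and non-invading signals of 11.34, 11.23, 11.35 and 11.38 at 72 h. These did not overlap (log2 ratio 0.31, SE 0.07, adjusted p = 0.015). At 96 h the signals were 11.85, 12.13, 12.20, 12.09 and 12.26 and 11.82, 11.99, 12.05, 11.98 and 12.09, which overlapped (log2 ratio 0.12, SE 0.08, adjusted p = 0.32). Gstm2 and Gsto1 passed at 96 h alone in the calls, with 0.20 and 0.27. Gstm5 and Mgst2 passed at neither time.

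Among 7 peroxidases, catalase and dismutases, 2 (28.6%) were higher and 1 (14.3%) was lower at 72 h, and 4 (57.1%) were higher and 1 (14.3%) was lower at 96 h. Of all genes 13% were higher and 13.5% lower at 72 h, and 16.7% and 14.7% at 96 h. Gpx4, which reduces lipid hydroperoxides in membranes, was higher by 0.39 at 72 h and 0.39 at 96 h (adjusted p = 0.0051 and 0.0011), and both of its probe sets passed. Sod2, the mitochondrial superoxide dismutase, was higher by 0.24 and 0.29 (adjusted p = 0.061 and 0.007). Gpx1, the cytosolic peroxidase, and Gpx3, the secreted one, were higher at 96 h alone in the calls, by 0.21 and 0.23. The mean signal of Gpx3 was 4.904, at the 15.9th percentile of genes, where a signal is hard to tell from background. Gpx8, a peroxidase of the endoplasmic reticulum, was the 1 member lower at both times. Its samples are given because of this, chosen after the values were seen. Its invading signals at 72 h were 11.61, 11.70, 11.84 and 11.63 and its non-invading signals 12.001, 11.97, 12.06 and 12.04, and at 96 h they were 11.91, 11.99, 11.88, 11.90 and 11.98 and 12.06, 12.12, 12.08, 12.14 and 12.21. All invading samples were below all non-invading samples at both times (log2 ratio -0.33, SE 0.07, adjusted p = 0.011 at 72 h, log2 ratio -0.19, SE 0.05, adjusted p = 0.014 at 96 h). With arrays centred on their medians the call at 96 h was lost (adjusted p = 0.29). Cat, catalase, had log2 ratios of -0.14 and -0.15, and Sod1, the cytosolic dismutase, 0.07 and 0.11, and none of these passed.

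Nqo1, the quinone reductase that is among the best known targets of NRF2, had the highest ratio of all members at both times. Its signals at 72 h were 9.67, 9.90, 9.40 and 9.46 in the invading and 8.87, 8.70, 8.60 and 8.50 in the non-invading fraction. At 96 h they were 10.27, 10.37, 10.26, 10.48 and 10.20 and 9.26, 8.86, 9.01, 9.55 and 8.997. The fractions did not overlap at either time, and the gap between the lowest invading and the highest non-invading sample exceeded the SD of every group. Nqo1 was 1.92-fold higher at 72 h (log2 ratio 0.94, SE 0.12, adjusted p = 0.0016) and 2.27-fold higher at 96 h (log2 ratio 1.18, SE 0.12, adjusted p = 8.2e-05). Hmox1, the inducible haem oxygenase, had signals of 11.82, 11.91, 11.52 and 11.81 against 11.15, 11.11, 11.05 and 11.37 at 72 h, without overlap, and was 1.51-fold higher (log2 ratio 0.60, SE 0.10, adjusted p = 0.0048). At 96 h the signals were 11.82, 12.25, 12.05, 12.37 and 12.04 against 11.56, 11.69, 11.33, 11.54 and 11.90, where 1 invading sample lay below the highest non-invading one (log2 ratio 0.50, SE 0.12, adjusted p = 0.0097). Blvrb, which encodes biliverdin reductase B, was higher by 0.28 and 0.32. Cbr3, a carbonyl reductase, was higher by 0.36 and 0.28, and Cbr1, its neighbour in function, by 0.31 at 72 h (adjusted p = 0.032) with 0.17 at 96 h (adjusted p = 0.14). Osgin1, a growth inhibitor induced by oxidative stress, was higher by 0.31 and 0.34 (adjusted p = 0.078 and 0.064). Ephx1, the microsomal epoxide hydrolase, and Ugdh, which forms UDP-glucuronate, had log2 ratios between -0.07 and 0.13 and did not pass. Of the efflux pumps for glutathione conjugates, Abcc4 was higher at 96 h without overlap (log2 ratio 0.49, SE 0.07, adjusted p = 0.00048) and had a log2 ratio of 0.15 at 72 h. Abcc1 had -0.13 and -0.10 and passed at neither time.

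**Figure D2:**
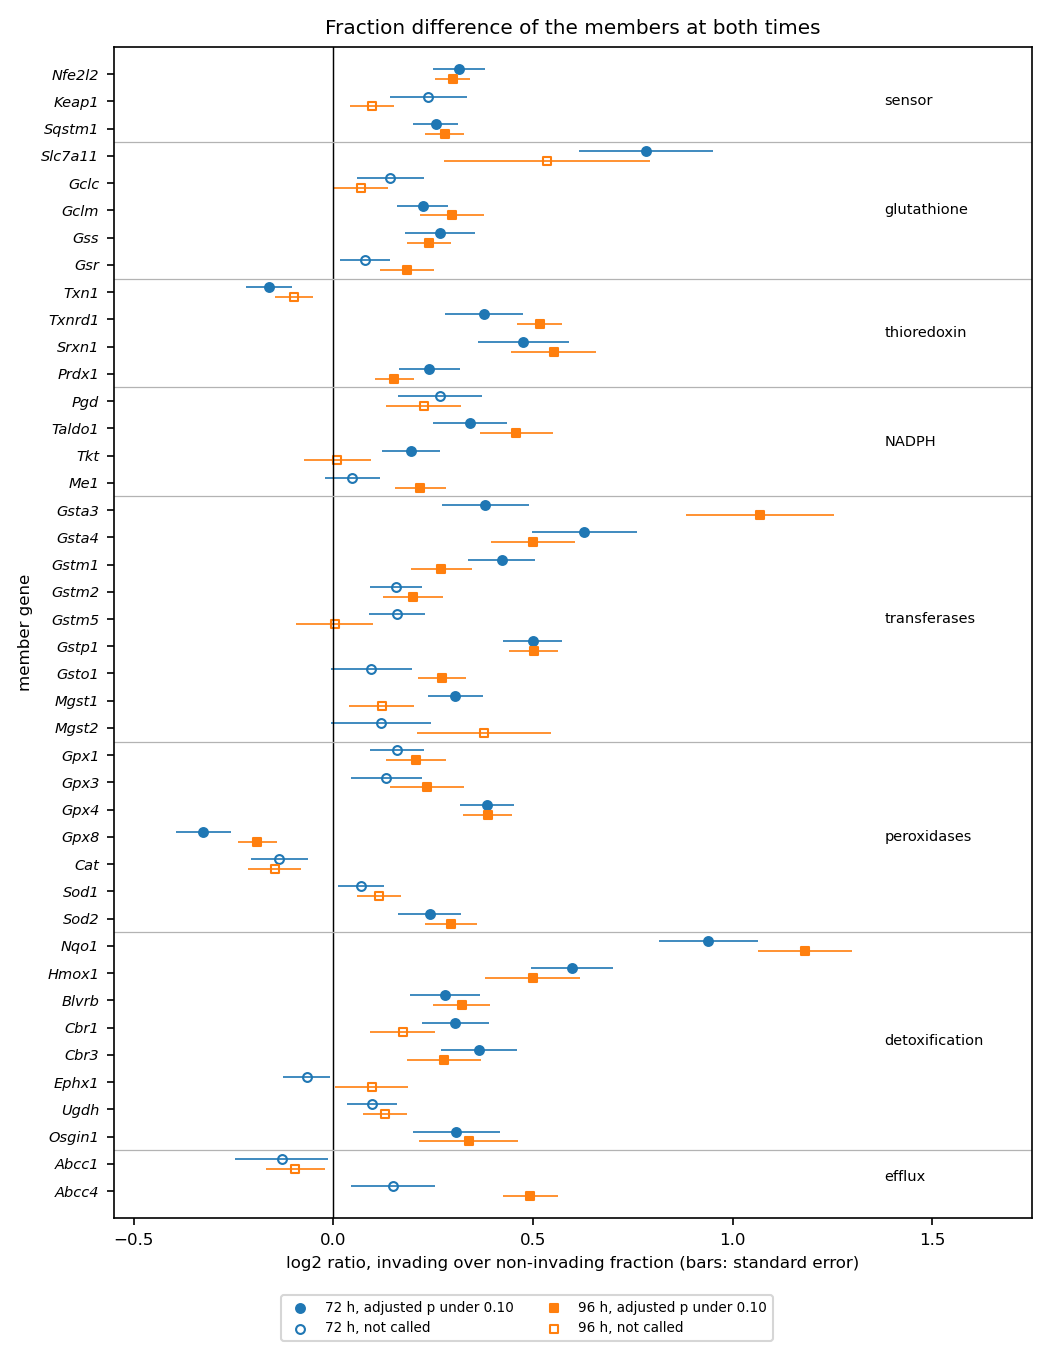
Log2 ratio of the invading over the non-invading fraction for each of the 42 members, with the standard error of the limma fit as bars, at 72 h (circles, 4 samples per fraction) and 96 h (squares, 5 per fraction). Filled symbols passed an adjusted p of 0.10, open symbols did not, and genes are ordered by role. Nqo1 lies farthest to the right and Gpx8 farthest to the left at both times.

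**Figure D3:**
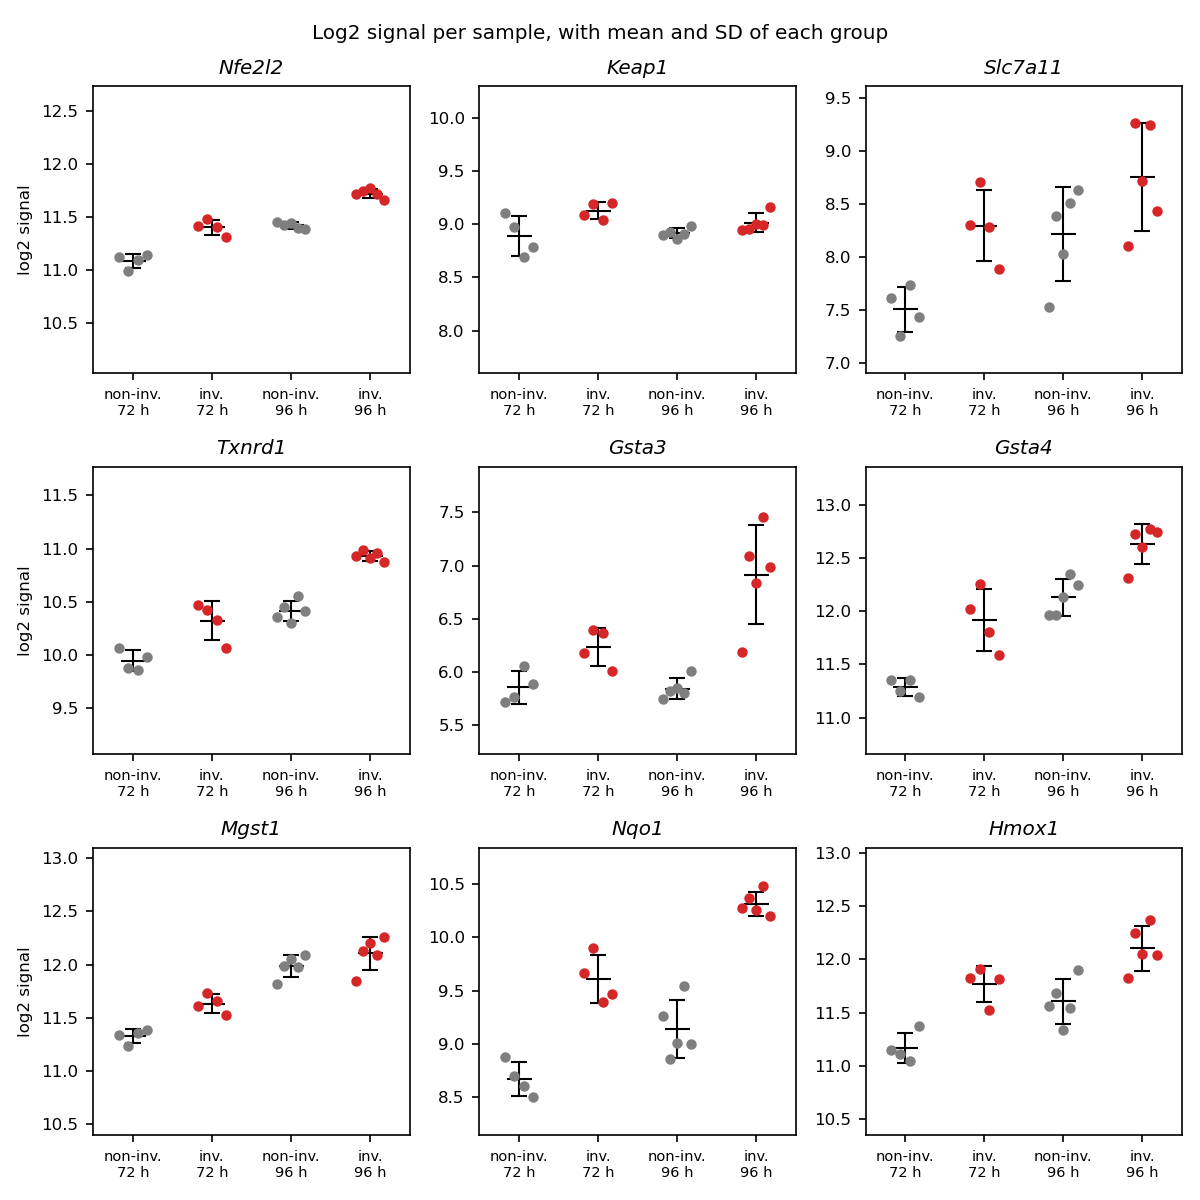
Log2 signal of 9 members in every sample (points), with the mean and SD of each group (bars), for the non-invading (grey) and invading (red) fractions at 72 h and 96 h; every panel spans the same number of log2 units. Nqo1 and Nfe2l2 show no overlap between the fractions of a time, Keap1 shows overlap at both, and 4 of 5 invading samples of Gsta3 at 96 h lie above all its other samples.

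The question whether the fraction difference changed from 72 h to 96 h was put to 1 fit over all 18 samples. No member passed (0 of 42 by limma, against 0.015% of all genes, which is 3 genes). An unadjusted p under 0.05 was found for 2 members and for 1623 of all 19938 genes, which is a larger share. The 2 members were Gsta3, whose log2 ratio was larger at 96 h by 0.69 (SE 0.24, adjusted p = 0.42), and Abcc4, where it was larger by 0.34 (SE 0.12, adjusted p = 0.43). For Slc7a11 the change was -0.25 (SE 0.35), for Mgst1 -0.18 (SE 0.11) and for Me1 0.17 (SE 0.09). A call at 1 time and not at the other was therefore not shown to be a difference between times for any member.

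Within each fraction, members were also compared between 96 h and 72 h. These comparisons use the same samples as those between fractions, and the labels name no batch, so the time and any batch of processing cannot be told apart. In the non-invading fraction 15 of 42 members were higher at 96 h and 4 were lower, against 15.4% and 12.2% of all genes. In the invading fraction 19 were higher and 5 were lower, against 18.2% and 16.7%. Among bright genes, with a mean of at least 10, these shares of higher genes were 30.6% and 38.9%, and 12 (46.2%) and 16 (61.5%) of the 26 bright members were higher. The shares of lower bright genes were 18.5% and 15.5%, and 3 of the 26 bright members were lower in each fraction. The median log2 ratio of the members was 0.08 in the non-invading and 0.13 in the invading fraction, and -0.02 and -0.03 over all genes. When quantile normalization was applied again, the counts were 13 higher and 9 lower in the non-invading fraction and 15 higher and 7 lower in the invading fraction. The shares over all genes were then 13.1% higher and 17.4% lower, and 15.5% and 18.7%, so the split between the directions depends on the scaling.

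A few members rose clearly over time, while the 9 transferases as a list did not move as 1 group, with median log2 ratios of 0.003 in the non-invading and 0.10 in the invading fraction. With a ratio above 1.5, Slc7a11, Gsta4 and Mgst1 were higher at 96 h in the non-invading fraction, and Txnrd1, Gsta3, Gsta4 and Nqo1 in the invading fraction (1.39% and 2.65% of all genes were). Their signals in every sample are given above. All non-invading samples of Gsta4 and Mgst1 at 96 h were above all those at 72 h, and Gsta4 rose 1.79-fold (log2 ratio 0.84, SE 0.12, adjusted p = 0.00017) and Mgst1 1.58-fold (log2 ratio 0.66, SE 0.08, adjusted p = 2.7e-05). Slc7a11 rose 1.63-fold in the non-invading fraction (log2 ratio 0.71, SE 0.25, adjusted p = 0.053), with overlap. This call ended without non-invading replicate 2 (adjusted p = 0.15) or 4 of 72 h, or without replicate 2, 4 or 5 of 96 h (adjusted p = 0.1 to 0.13). In the invading fraction its log2 ratio was 0.46 (adjusted p = 0.2). Txnrd1 rose 1.53-fold in the invading fraction (log2 ratio 0.61, SE 0.08, adjusted p = 1.7e-05) and by 0.47 on the log2 scale in the non-invading one. Nqo1 rose 1.63-fold in the invading fraction (log2 ratio 0.71, SE 0.13, adjusted p = 0.00056), and by 0.47 in the non-invading one (adjusted p = 0.016). Gsta4 rose by 0.72 in the invading fraction as well (adjusted p = 0.00038). Gsta3 rose in the invading fraction (log2 ratio 0.68, SE 0.17, adjusted p = 0.0074), whereas its log2 ratio was -0.01 in the non-invading one (adjusted p = 0.97).

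Nfe2l2 rose by 0.33 in the non-invading and 0.32 in the invading fraction (adjusted p = 0.00013 and 9.9e-05), and Keap1 passed in neither (0.03 and -0.12). At 96 h the non-invading samples of Nfe2l2, from 11.388 to 11.455, lay within the range of the invading samples of 72 h, from 11.314 to 11.48. Both subunits of glutamate-cysteine ligase rose, Gclc by 0.53 and 0.45 and Gclm by 0.45 and 0.53, all with an adjusted p of 0.00039 or below. Ephx1 rose by 0.40 and 0.56, and Prdx1 by 0.50 and 0.41. Some genes that remove peroxides moved the other way. Gpx1, Gpx4 and Cat fell in both fractions, Gpx1 with log2 ratios of -0.36 and -0.31, Gpx4 with -0.20 and -0.20, and Cat with -0.21 and -0.22. With arrays centred on their medians the fall of Gpx4 in the invading fraction was not called (adjusted p = 0.11). Tkt and Gss were lower in the invading fraction (-0.35 and -0.18), and Abcc4 in the non-invading fraction (-0.23). Centring also ended the calls of Gss (adjusted p = 0.22) and Abcc4 (adjusted p = 0.1), and a fit of the 2 groups alone ended that of Abcc4 (adjusted p = 0.12). The mean log2 signal of all members was 10.08 to 10.16 for non-invading samples at 72 h and 10.2 to 10.32 at 96 h, and 10.3 to 10.45 for invading samples at 72 h and 10.45 to 10.6 at 96 h.

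**Figure D4:**
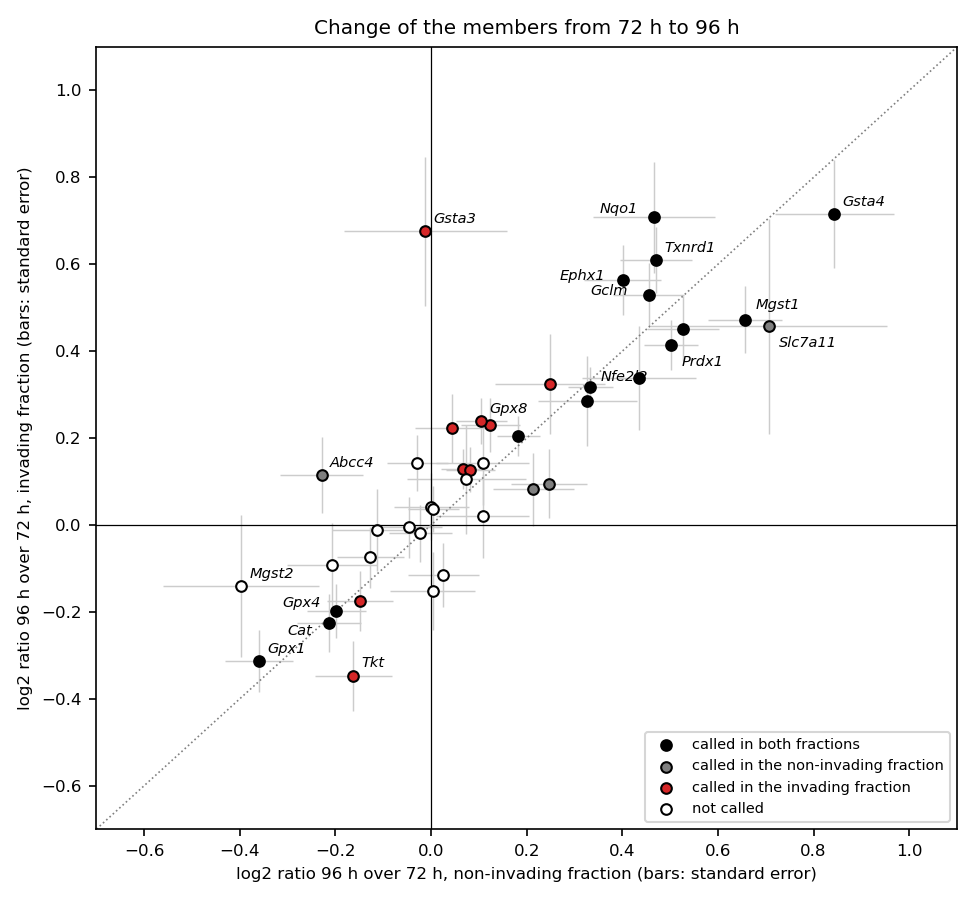
Log2 ratio of 96 h over 72 h for each of the 42 members in the non-invading fraction (x axis) and the invading fraction (y axis), with standard errors as bars; colours show in which fraction a member passed an adjusted p of 0.10, and the dotted line marks equal ratios. Gsta4, Nqo1 and Txnrd1 lie at the upper right, Gpx1 at the lower left, and Gsta3 lies far above the dotted line.

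Of 86 further genes of these pathways, 78 were measured. At 72 h 16 (20.5%) were higher and 8 (10.3%) lower in the invading fraction, against 13% and 13.5% of all genes, with a median log2 ratio of 0.10. At 96 h 22 (28.2%) were higher and 10 (12.8%) lower, against 16.7% and 14.7% of all genes, with a median of 0.08. Among 10 partners and negative regulators of NRF2, 1 (10%) was higher and 2 (20%) were lower at each time, near the shares of all genes just given. These genes are named after their values were seen. Cul3, the cullin of the ligase that KEAP1 serves, was lower (-0.35 and -0.18), as was Gsk3b, a kinase that marks NRF2 for a second ligase (-0.41 and -0.28), and Btrc, an adaptor of that second ligase, was higher (0.24 and 0.29). Aldh3a1, an aldehyde dehydrogenase, was higher by 1.28 at 72 h without overlap (adjusted p = 0.00091) and by 1.54 at 96 h with overlap (adjusted p = 0.0045), which are larger log2 ratios than that of Nqo1 at each time. Nqo2, the quinone reductase related to Nqo1, was lower without overlap at both times (log2 ratio -0.67, SE 0.10, adjusted p = 0.0028 at 72 h, log2 ratio -0.68, SE 0.08, adjusted p = 0.00024 at 96 h). Ggt5, an enzyme that cleaves glutathione conjugates outside the cell, was higher at 96 h (log2 ratio 0.68, SE 0.18, adjusted p = 0.018). Between the times, 22 of the 78 (28.2%) were higher and 10 (12.8%) lower at 96 h in the non-invading fraction, against 15.4% and 12.2% of all genes. In the invading fraction 24 (30.8%) were higher and 8 (10.3%) lower, against 18.2% and 16.7%. Prdx3, Glrx3 and Ptgr2, named after their values were seen, rose more than 1.5-fold in both fractions, and Aldh3a1 in the invading fraction.

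**Figure D5:**
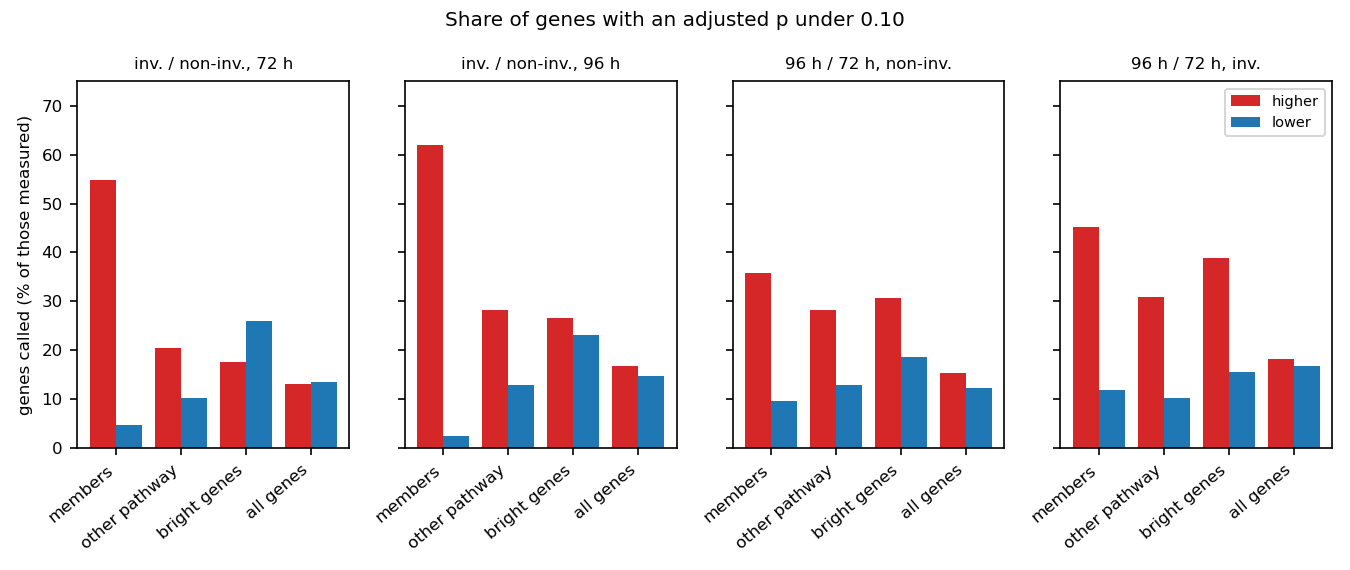
Share of genes called higher (red) or lower (blue) at an adjusted p under 0.10 in each of 4 comparisons, for the 42 members, the 78 other pathway genes, the 2665 genes with a mean log2 signal of at least 10 and all 19938 genes. The share of higher members, 54.8% at 72 h and 61.9% at 96 h, is above that of the other lists, and the gap to the bright genes is smaller in the comparisons of times.

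Some markers of fibroblasts and of other cell types moved with the fractions. The fibroblast markers Col1a1 (log2 ratio -0.25 and -0.24), Col1a2 (-0.20 and -0.20), Col3a1 (-0.345 and -0.350) and S100a4 (-0.24 and -0.24) were lower at both times. Pdgfrb was higher at 72 h (0.27). Krt8, a keratin, was higher at both times (log2 ratio 0.53 and 0.32), and Cd68 (0.56), Des (0.47), Myh11 (0.18), Epcam (0.18) and Cdh1 (0.15) were higher at 96 h. Acta2 was lower at 72 h (-0.34). Msln, a mesothelial marker with a mean signal of 10.17, was lower at both times (-0.71 and -0.63). Wt1 and Upk3b, the other mesothelial markers, had log2 ratios between -0.07 and 0.06. These and the remaining markers of all lists, Cnn1 among them, passed at neither time. The mean of 5 leukocyte and macrophage markers was 5.548 to 5.751 in the invading and 5.39 to 5.524 in the non-invading samples of 96 h. Besides Cd68, the log2 ratios of these markers at 96 h were 0.07 for Ptprc and Adgre1 (adjusted p = 0.5 and 0.36). For Csf1r and Itgam they were 0.12 (adjusted p = 0.19 and 0.24). The part of these differences in the values of the members was not tested.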

How the data were processed

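The deposited log2 values are RMA signals that the authors made in Affymetrix Expression Console (version 1.2 per the submitters' notes), with background correction and sketch-quantile normalization, and they were used without further transformation. RNA had been prepared with miRNeasy columns and labelled with the Ambion WT Expression kit. All 18 samples and all per-sample columns were used, and precision is limited by how many arrays there are. Of 35556 probe sets, 21789 carry 1 symbol of the array annotation.

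Fractions were compared per time, without covariates, and times in 1 fit over all 18 samples, with limma 3.58.1 in R 4.3.3 and Benjamini-Hochberg adjustment over all probe sets. On simulated data 100 probe sets were changed 2-fold and 100 others 3-fold. Of the former, 95 were recovered at 72 h and 91 at 96 h, and of the latter 97 and 100. Among the unchanged probe sets 29 and 19 were called. Most differences of the members were smaller than 2-fold, and the recovery of such differences was not tested. The members and lists were chosen with earlier results of these data known. Values per sample are given for Nfe2l2, Keap1 and every member regulated with a ratio above 1.5 between fractions or times, and for other pathway genes those above 1.5 between fractions are named. Alternatives were another normalization, centring, filters, an intensity trend, a stricter threshold, other fits, a replicate block and leaving out each sample.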

Additional observations from a re-analysis of the deposited data

Results flagged for a closer look

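Of 168 groups of samples (42 members in 4 groups), 6 held a sample set apart from the rest by Dixon's test, where chance alone sets apart about 1 in 20. Each value here is the gap to the nearest sample divided by the range of the group. Pgd had the clearest, with non-invading replicate 3 of 72 h at 10.766 and the next sample at 11.02 (0.901). Osgin1 had non-invading replicate 1 of 96 h at 7.619 and the next at 7.971 (0.834). Gpx4 had invading replicate 3 of 72 h at 11.429, below 11.553 (0.832). Abcc4 had non-invading replicate 2 of 96 h at 8.331, below 8.611 (0.824). Keap1 had invading replicate 5 of 96 h at 9.166, above 9.003 (0.734). Sqstm1 had invading replicate 1 of 96 h at 13.044, below 13.105 (0.726). Of the calls of these genes, leaving out the sample ended 3: the rise of Pgd over time in the non-invading fraction (adjusted p = 0.12), the difference of Osgin1 between fractions at 96 h (adjusted p = 0.13) and the fall of Abcc4 over time in the non-invading fraction (adjusted p = 0.18).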

How the results depend on the processing

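No member that passed in the main comparisons changed sign under any alternative, and 16 of 25 calls at 72 h, 19 of 27 at 96 h, 14 of 19 over time in the non-invading and 16 of 24 in the invading fraction were made in every setting. Leaving out 1 sample gave 18 to 25 regulated members at 72 h, 23 to 29 at 96 h, 16 to 21 over time in the non-invading and 19 to 23 in the invading fraction, and 0 for the change between times. Of all genes 9.23% to 12.5% were then higher and 10.8% to 13.4% lower at 72 h, and 13.9% to 17.9% and 12.3% to 15.4% at 96 h. Over time these shares were 12.4% to 15.3% and 8.79% to 12.2% in the non-invading fraction. In the invading fraction they were 16.2% to 18.1% and 12.9% to 17.2%. The other alternatives gave 18 to 32, 22 to 36, 16 to 22, 21 to 25 and 0 regulated members in the same order. They called 8.29% to 25.3% of all genes higher and 9.35% to 24.6% lower at 72 h, and 12.3% to 45.7% and 7.92% to 23.9% at 96 h. Over time they called 12.6% to 26.8% and 8.54% to 20.1% in the non-invading, and 15.5% to 31.5% and 12.1% to 21.5% in the invading fraction. Leaving out 1 sample ended the calls of Gclm, Gss, Txn1, Prdx1, Tkt, Sod2, Blvrb and Osgin1 at 72 h (adjusted p of 0.1 to 0.2 then), any of the 8 samples ending at least 1 of them. It ended those of Gsr, Gstm2, Gpx1, Gpx3, Cbr3 and Osgin1 at 96 h (0.1 to 0.18, any of the 10 samples), of Slc7a11, Pgd, Gstm1, Cbr1 and Abcc4 over time in the non-invading fraction (0.1 to 0.22, any of the 9 samples but replicate 3 of 96 h) and of Gss, Txn1, Srxn1, Pgd, Gsto1, Sod1 and Hmox1 in the invading fraction (0.1 to 0.19, any of the 9). At 96 h, centring arrays on their medians gave 36 higher members, 0 lower and 9 with a ratio above 1.5 (2 in the main comparison), and moved the median log2 ratio of all genes from 0.02 to 0.14 and that of the members from 0.26 to 0.37. All genes were then called higher in 45.7% and lower in 7.92%. At 72 h it gave 31 higher and 1 lower, with 25.2% and 9.35% of all genes. Quantile normalization applied again gave 28 higher and 2 lower at 72 h (25.3% and 11.7% of all genes) and 30 and 3 at 96 h (38.6% and 12.5%). A limit to probe sets with a linear signal above 100 gave 15 higher and 7 lower over time in the non-invading fraction (26.8% and 20.1% of all genes), and left Gpx3 out. Quantile normalization applied again also ended the calls of Prdx1 at 96 h, of Gstm1 and Cbr1 over time in the non-invading and of Pgd, Gsto1, Sod1 and Hmox1 over time in the invading fraction, and centring those of Txn1 at 72 h, Gpx8 at 96 h, Cbr1 and Abcc4 over time in the non-invading and Gss and Gpx4 over time in the invading fraction. The cause of these shifts was not tested. The replicate numbers were not taken to pair the samples, because the labels do not say that they do. Deviations of same-numbered samples correlated at -0.075 to 0.087 at 72 h (1 of 4 best with its own partner) and 0.049 to 0.17 at 96 h (4 of 5). The times thus point different ways, and these values do not settle the pairing. With the replicate number as a block, 23 members were regulated at 72 h, 30 at 96 h and 0 for the change between times, and 20 and 24 over time with it as a random block. Of all genes the block called 9.63% higher and 11.7% lower at 72 h, and 17.5% and 15% at 96 h. The random block called 15.4% and 12.2% of all genes in the non-invading fraction, and 18.2% and 16.6% in the invading fraction.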
